A study of Mus musculus with 5 samples.

Results

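The genes of the MHC class I presentation pathway described here are 10 genes that were picked by symbol from the 56748 genes of the deposited count table, and all 10 were among the 17724 genes that passed the filter on low counts. They comprise the class I heavy chains H2-K1, H2-D1 and H2-T23, the light chain B2m, the peptide transporter genes Tap1 and Tap2, the loading factor gene Tapbp, the immunoproteasome subunit genes Psmb8 and Psmb9, and the transcriptional activator gene Nlrc5. RNA came from CD11b-positive cells of mouse brain without the cerebellum, at 7 months of age, with 1 library per mouse. CD11b, an integrin subunit, marks microglia and the other myeloid cells at their surface; the library descriptions speak of brain tissue. All mice carried the 5xFAD transgenes, which cause amyloid plaques. The first group was 5xFAD alone (2 mice, numbered 1 and 3), and the second was 5xFAD/Cd5l tg/wt (3 mice, numbered 1, 2 and 3), with a mouse Cd5l transgene driven by the human PDGF-B promoter, which is widely used for expression in neurons, and is called Cd5l-transgenic below. The comparison asked how forced CD5L expression, a secreted scavenger-receptor-family protein, went with transcript levels in these cells. The sources used here give neither strain nor sex, and wild-type mice were not analysed here.

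Class I molecules show peptides from inside a cell to CD8 T cells and natural killer cells. Proteasomes cut proteins into peptides, the TAP1 and TAP2 proteins carry them into the endoplasmic reticulum, and tapasin, the product of Tapbp, helps load them onto a heavy chain paired with beta-2-microglobulin. Interferons raise most of these genes, partly through NLRC5, which acts at a shared promoter module with a cAMP-response-like X2 part and a CCAAT-type Y part. In the brain, microglia and endothelial cells express class I genes, and interferon raises them further.

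The following promoter stretches show which of these elements the class I genes share. Whether shared elements had a part in the levels given below was not tested. They come from the RefSeq promoter table of build GRCm38.p6, whose coordinates differ from those of the counts (GRCm39). The stretches of B2m, H2-K1, H2-D1 and H2-T23 hold the 180 bases before the start site, at chr2:122147507-122147686 (plus strand), chr17:34000348-34000527 (minus strand), chr17:35262914-35263093 (plus strand) and chr17:36032702-36032881 (minus strand). That of Tap1, at chr17:34187331-34187555 (plus strand), holds the 225 bases between the start sites of Tap1 and of Psmb9, which is read in the opposite direction. Capitals mark matches to the motifs named in the next paragraph, on either strand.
H2-K1: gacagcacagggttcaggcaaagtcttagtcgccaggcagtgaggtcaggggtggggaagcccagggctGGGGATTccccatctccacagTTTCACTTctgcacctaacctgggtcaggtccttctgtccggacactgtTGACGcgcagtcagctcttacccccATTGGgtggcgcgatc
H2-D1: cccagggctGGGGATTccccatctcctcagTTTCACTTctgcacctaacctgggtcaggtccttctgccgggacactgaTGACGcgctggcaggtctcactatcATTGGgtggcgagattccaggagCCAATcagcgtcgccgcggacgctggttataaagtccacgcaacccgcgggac
H2-T23: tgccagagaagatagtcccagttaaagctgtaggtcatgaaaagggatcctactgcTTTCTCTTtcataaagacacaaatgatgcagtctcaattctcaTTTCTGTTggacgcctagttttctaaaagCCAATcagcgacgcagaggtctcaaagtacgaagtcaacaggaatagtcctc
B2m: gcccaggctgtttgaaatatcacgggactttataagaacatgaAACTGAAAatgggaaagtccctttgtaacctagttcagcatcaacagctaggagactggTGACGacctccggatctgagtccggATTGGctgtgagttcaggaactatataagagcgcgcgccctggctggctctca
Tap1: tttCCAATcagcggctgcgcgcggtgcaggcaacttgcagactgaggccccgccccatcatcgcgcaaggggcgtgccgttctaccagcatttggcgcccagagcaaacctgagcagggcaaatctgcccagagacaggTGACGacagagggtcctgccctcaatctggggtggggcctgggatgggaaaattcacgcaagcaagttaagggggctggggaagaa

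Windows from 250 bases before to 50 bases after the start site were present for 8 of the 10 genes, those other than Tap2 and Nlrc5. Motifs were searched on both strands by their letters, which were chosen with these promoters in view. The left part of the kappaB site of class I promoters (GGGGATT) was in the windows of H2-K1 and H2-D1 and in 3.1% of all 32851 windows. The core bound by interferon-regulatory factors, written TTTCNNTT, was in 4 of the 8 windows (H2-K1, H2-D1, H2-T23 and B2m), against 23.9% of all windows. The cAMP-response-like core TGACG was in 5 of the 8 windows (B2m, H2-K1, H2-D1, Tap1 and Psmb9), against 20.8% of all windows, and CCAAT was in 7 of the 8, all but that of Psmb8, against 37.4%. The TGACG and CCAAT matches of Tap1 and Psmb9 are the same sites, in the stretch between their start sites. The windows of Tap1 and Psmb9 are thus not independent in these counts. In H2-K1 and H2-D1 these elements (kappaB part, interferon-regulatory core, cAMP-response-like core and the first CCAAT, on the minus strand of the stretch) came in the same order, and the windows matched at 206 of 228 aligned positions (90.4%), with 40 identical bases in the longest run of the printed stretches. H2-D1 and H2-T23 matched at 63.5% of 96 aligned positions. A match of letters is a description and does not show binding.

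Libraries held 30798377 to 34794617 counts. Values are given as CPM, counts relative to library size, scaled between libraries by TMM factors, and every pair of libraries differed by more than counting error (chi-square per degree of freedom 20.8 to 59.4). Cd5l, which checks the labels, stood at 1.53 and 0.254 CPM in 5xFAD mice 1 and 3 and at 233.7, 334.9 and 194.8 CPM in Cd5l-transgenic mice 1, 2 and 3. Its log2 fold change of 8.23 (SE 0.60) had an adjusted p of 0.448 in edgeR and of 5.79e-19 in DESeq2. Summed neuron markers were at 1.81 to 8.78 CPM. Summed microglial markers (10 of 10 detected) ran from 25920 to 29390 CPM, and the summed markers of T and natural killer cells from 3.98 to 7.08 CPM. Of the marker lists, 4 were higher in every Cd5l-transgenic library than in either 5xFAD library: endothelial (706.8 to 1307 against 638 to 657 CPM), mural and smooth muscle (222.1 to 380.6 against 154.7 to 215.7 CPM), monocyte (26.7 to 42.2 against 18.8 to 22.8 CPM) and erythroid (7.40 to 20.8 against 1.47 to 2.41 CPM). Cd5l-transgenic mouse 2 had the most oligodendrocyte marker RNA (4043 CPM, others 328.2 to 1035 CPM), and 5xFAD mouse 3 the most RNA of choroid plexus and ependymal markers (2785 CPM, others 251.1 to 527.8 CPM). 5xFAD mouse 1 had the most RNA of plaque-associated microglia (37600 CPM, others 18700 to 23870 CPM). The sums of these last 2 lists overlapped between groups. Of their genes, 0 of 10 plaque-associated and 0 of 6 choroid plexus and ependymal markers had a higher estimate with the transgene. Fewer cells of a type and less RNA per cell cannot be told apart in such libraries.

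No class I presentation gene passed the test between genotypes. In the edgeR quasi-likelihood test, adjusted by Benjamini-Hochberg over all 17724 genes at a threshold of 0.05, 0 of the 10 genes were called and the background share of called genes was 0% in either direction. At an unadjusted p under 0.05 edgeR again counted 0 of the 10, against 2.63% of all tested genes (1.14% higher and 1.5% lower with the transgene). DESeq2, with a background of 0.0615% called higher and 0.0137% lower, and limma-voom, with 0%, also called 0 of the 10, and each had 1 of them, Tap1, at an unadjusted p under 0.05, against 4.06% of all genes in DESeq2 and 3.12% in limma-voom. Differences below are log2 fold changes, coded as Cd5l-transgenic minus 5xFAD, and 6 of the 10 lay above 0, against 42.7% of all tested genes. Their median was 0.020, where the median of all tested genes was -0.027. The p-values set the difference between groups against the spread within groups, which is estimated partly from all genes. Each of the 5 libraries was taken as 1 mouse from its title.

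**Figure D1:**
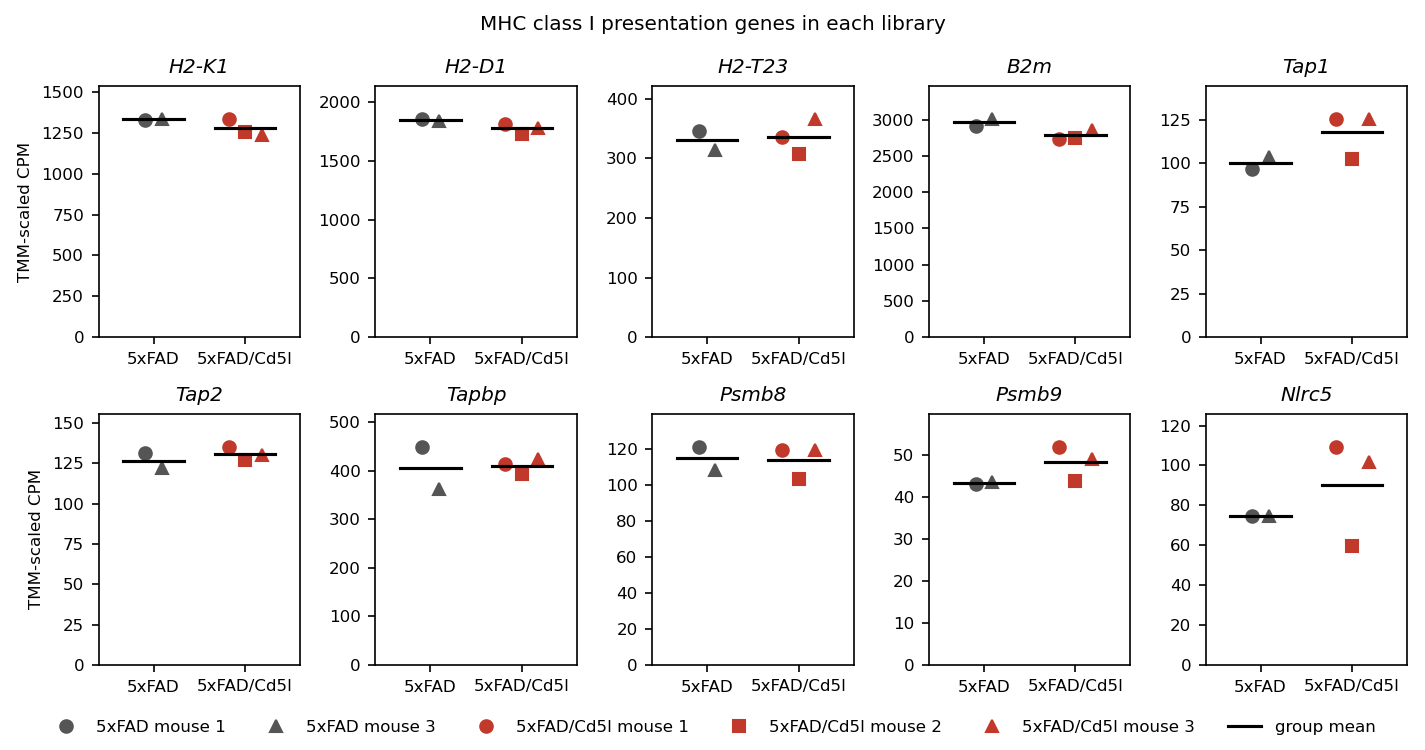
TMM-scaled CPM (linear axes from 0) of the 10 class I presentation genes in each library, by genotype; each point is 1 mouse and the line the group mean. H2-K1, H2-D1 and B2m lie within narrow ranges, whereas Nlrc5 spreads from 59.8 to 109.5 CPM among the Cd5l-transgenic mice.

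The classical heavy chains, H2-K1 and H2-D1, which present peptides to CD8 T cells, were abundant and nearly level in all 5 mice. H2-D1 (ENSMUSG00000073411, chromosome 17, 35481706 to 35486475, plus strand, GRCm39) stood at 1860 and 1840 CPM in 5xFAD mice 1 and 3, and at 1818, 1734 and 1785 CPM in Cd5l-transgenic mice 1, 2 and 3. All Cd5l-transgenic values thus lay below both 5xFAD values, by a gap of 21.6 CPM or 1.19% of the mean. The means were 1850 ± 14.6 CPM (SD, n = 2) and 1779 ± 42.1 CPM (SD, n = 3), and H2-D1 had a log2 fold change of -0.056 (95% interval -0.28 to 0.17; edgeR adjusted p = 0.995). H2-K1 (ENSMUSG00000061232, chromosome 17, 34214991 to 34219321, minus strand) had 1329 and 1336 CPM in the 5xFAD mice and 1337, 1259 and 1239 CPM in the Cd5l-transgenic mice. Here the groups overlapped, as Cd5l-transgenic mouse 1 had the highest value of all. The log2 fold change of H2-K1 was -0.060 (95% interval -0.28 to 0.16; edgeR adjusted p = 0.995). Among all tested genes, ordered by the coefficient of variation over the 5 libraries, H2-D1 (2.74%) and H2-K1 (3.63%) lay at percentiles 1.89 and 4.78 from the least variable; abundant genes have less counting error. These chains differ between mouse strains and resemble each other, so their counts depend on how reads were matched to the reference, which was not tested.

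B2m (ENSMUSG00000060802, chromosome 2, 121978167 to 121983564, plus strand), the light chain that every class I heavy chain needs for a stable surface form, had the highest level per kb of the 10 genes. Its values were 2912 and 3013 CPM in 5xFAD and 2733, 2753 and 2862 CPM in the Cd5l-transgenic mice. Like H2-D1 it was lower in all Cd5l-transgenic mice, with a gap of 50.4 CPM or 1.77% of the mean between the nearest mice. The means of B2m were 2963 ± 71.3 CPM (SD, n = 2) and 2783 ± 69.2 CPM (SD, n = 3), a difference of -6.07%, for a log2 fold change of -0.090 (95% interval -0.33 to 0.15; edgeR adjusted p = 0.995). H2-D1 and B2m were the 2 of the 10 genes with no overlap in the lower direction, and Psmb9 was the 1 in the higher direction. Over all tested genes 8.69% showed no overlap in the lower direction and 7.2% in the higher, 15.9% together. H2-T23 (ENSMUSG00000067212, chromosome 17, 36340665 to 36343747, minus strand) encodes Qa-1, a nonclassical chain recognised by inhibitory receptors of natural killer cells. It stood at 346.1 and 314.6 CPM in the 5xFAD mice against 336.3, 307.3 and 366.5 CPM in the Cd5l-transgenic mice, so that both the highest and the lowest value were in Cd5l-transgenic mice. Its log2 fold change of 0.028 (95% interval -0.23 to 0.28) turned to -0.041 without 5xFAD mouse 3 and to -0.019 without Cd5l-transgenic mouse 3.

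The transporter genes Tap1 and Tap2 encode the paired chains of the pump that moves peptides into the endoplasmic reticulum. Tap1 (ENSMUSG00000037321, chromosome 17, 34406527 to 34416199, plus strand) had the smallest p of the 10 genes. Its values were 96.7 and 103.5 CPM in 5xFAD mice 1 and 3, and 125.6, 102.7 and 125.7 CPM in Cd5l-transgenic mice 1, 2 and 3. Cd5l-transgenic mice 1 and 3 lay above both 5xFAD mice, while mouse 2 lay between them. The means of Tap1 were 100.1 ± 4.80 CPM (SD, n = 2) and 118 ± 13.3 CPM (SD, n = 3), 17.9% higher with the transgene, a log2 fold change of 0.24 (SE 0.11, 95% interval -0.039 to 0.51). That difference did not pass (edgeR unadjusted p = 0.0801, adjusted p = 0.995). Over the alternatives its adjusted p was 0.412 or more. Tap2 (ENSMUSG00000024339, chromosome 17, 34422501 to 34435295, plus strand) was at 131.2 and 122.2 CPM in the 5xFAD mice against 135.5, 127 and 130.1 CPM in the Cd5l-transgenic mice, with overlapping groups. Its log2 fold change was 0.047 (95% interval -0.14 to 0.23), and -0.0050 without 5xFAD mouse 3. Tapbp (ENSMUSG00000024308, chromosome 17, 34134873 to 34148266, plus strand) had its extremes in the 5xFAD mice, 449.9 CPM in mouse 1 and 363.4 CPM in mouse 3. The Cd5l-transgenic mice lay between them at 413.9, 393.2 and 423.6 CPM. The log2 fold change of Tapbp was 0.013 (95% interval -0.26 to 0.29), and it was 0.18 without 5xFAD mouse 1 and -0.14 without 5xFAD mouse 3.

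Psmb8 and Psmb9 encode the inducible beta5i and beta1i subunits, which replace constitutive subunits and make the immunoproteasome. Psmb9 (ENSMUSG00000096727, chromosome 17, 34400961 to 34406738, minus strand) had 43.2 and 43.7 CPM in the 5xFAD mice, against 52.1, 43.8 and 49.0 CPM in Cd5l-transgenic mice 1, 2 and 3. All Cd5l-transgenic values were above both 5xFAD values, but mouse 2 by only 0.13 CPM, 0.281% of the mean, which is less than the counting error of the library with the fewest Psmb9 counts (2.80%). The means of Psmb9 were 43.4 ± 0.293 CPM (SD, n = 2) and 48.3 ± 4.21 CPM (SD, n = 3), with a log2 fold change of 0.15 (95% interval -0.082 to 0.39; edgeR adjusted p = 0.995), and 0.23 without Cd5l-transgenic mouse 2. Psmb9 and Tap1 share the promoter stretch printed above, and both were highest in Cd5l-transgenic mice 1 and 3. Whether the shared stretch had a part in this was not tested. The gene bodies overlap by 212 bases on opposite strands, and no source used here says whether counting used strand, so reads from that overlap may have been counted for either gene. Psmb8 (ENSMUSG00000024338, chromosome 17, 34416695 to 34420428, plus strand), which lies between Tap1 and Tap2, stood at 121.3 and 108 CPM in the 5xFAD mice against 119.4, 103.4 and 119.2 CPM in the Cd5l-transgenic mice. Its log2 fold change of -0.0075 (95% interval -0.25 to 0.24) changed sign under other scalings, 0.011 with DESeq2 size factors and 0.012 with upper-quartile factors.

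Nlrc5 (ENSMUSG00000074151, chromosome 8, 95160984 to 95253900, plus strand), the activator of class I transcription, varied most among the 10 genes, and the variation was within the Cd5l-transgenic group. Its coefficient of variation (24.6%) lay at percentile 67.2 of all tested genes from the least variable. The 5xFAD mice were nearly equal at 74.7 and 74.9 CPM. Cd5l-transgenic mice 1 and 3 were higher, at 109.5 and 101.5 CPM, and mouse 2 was lower than either 5xFAD mouse, at 59.8 CPM. The means of Nlrc5 were 74.8 ± 0.122 CPM (SD, n = 2) and 90.3 ± 26.7 CPM (SD, n = 3), and the log2 fold change was 0.27 (SE 0.27, 95% interval -0.40 to 0.95; edgeR adjusted p = 0.995). Without Cd5l-transgenic mouse 2 it was 0.51 and without Cd5l-transgenic mouse 1 it was 0.11. The highest and lowest libraries differed 1.83-fold for Nlrc5, against 1.30-fold for Tap1, 1.07-fold for H2-D1 and 1.08-fold for H2-K1.

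**Figure D2:**
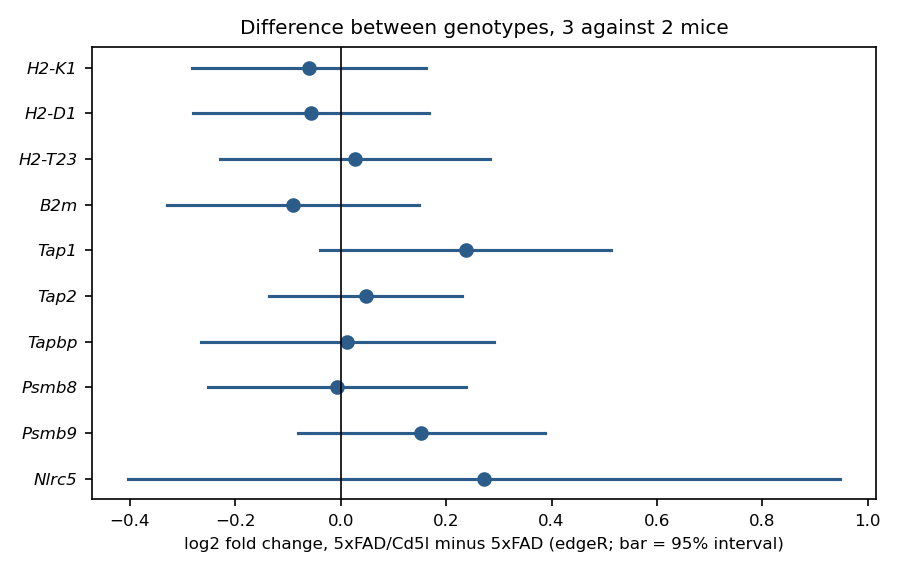
Log2 fold change of each gene, Cd5l-transgenic minus 5xFAD (3 against 2 mice), from edgeR; points are estimates and bars 95% intervals for single genes, not adjusted for the number of genes. Every bar crosses 0, and that of Nlrc5 is the widest, from -0.40 to 0.95.

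Within a library, most of the 10 genes tended to lie on one side of their own means. All 10 genes were below their own 5-library mean (of log2 CPM) in Cd5l-transgenic mouse 2, and 4 of the 10 had their lowest value there. The shares of all tested genes above or below their own means were not counted for any library. Neither this nor the counts that follow can thus be taken as particular to the 10. In Cd5l-transgenic mouse 1, 9 of the 10 genes were above their mean, in Cd5l-transgenic mouse 3, 8 of the 10, in 5xFAD mouse 1, 7, and in 5xFAD mouse 3, 3. The median deviation was 0.031 and -0.081 in 5xFAD mice 1 and 3 and 0.054, -0.069 and 0.060 in Cd5l-transgenic mice 1, 2 and 3, on the log2 scale. Cd5l-transgenic mouse 2 was also the library with the most endothelial (1307 CPM) and oligodendrocyte marker RNA, while its summed microglial markers (27170 CPM) were within the range of the others; their part in the low class I values was not tested. As all 10 genes were low in that mouse, leaving it out raises their estimates. With that mouse left out, Tap1, Nlrc5 and Psmb9 had an unadjusted p under 0.05 in edgeR, against 2.14% of all genes, and 0 of the 10 were called. With 5xFAD mouse 3 left out as well, Tap1 and Nlrc5 did, against 6.24% of all genes, and again 0 of the 10 were called. With the mouse number as a block, Tap1 and Nlrc5 had an unadjusted edgeR p under 0.05 (3.44% of all genes). Number 2 occurs only among the Cd5l-transgenic mice, so that fit takes no genotype difference from mouse 2. It is thus no check separate from leaving that mouse out. With the 5 CPM filter Tap1 had an unadjusted p under 0.05 (1.99% of all genes). In edgeR with DESeq2 size factors, upper-quartile factors, no robust settings or no filter, 0 of the 10 did. The same held without Cd5l-transgenic mouse 1 and without Cd5l-transgenic mouse 3.

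**Figure D3:**
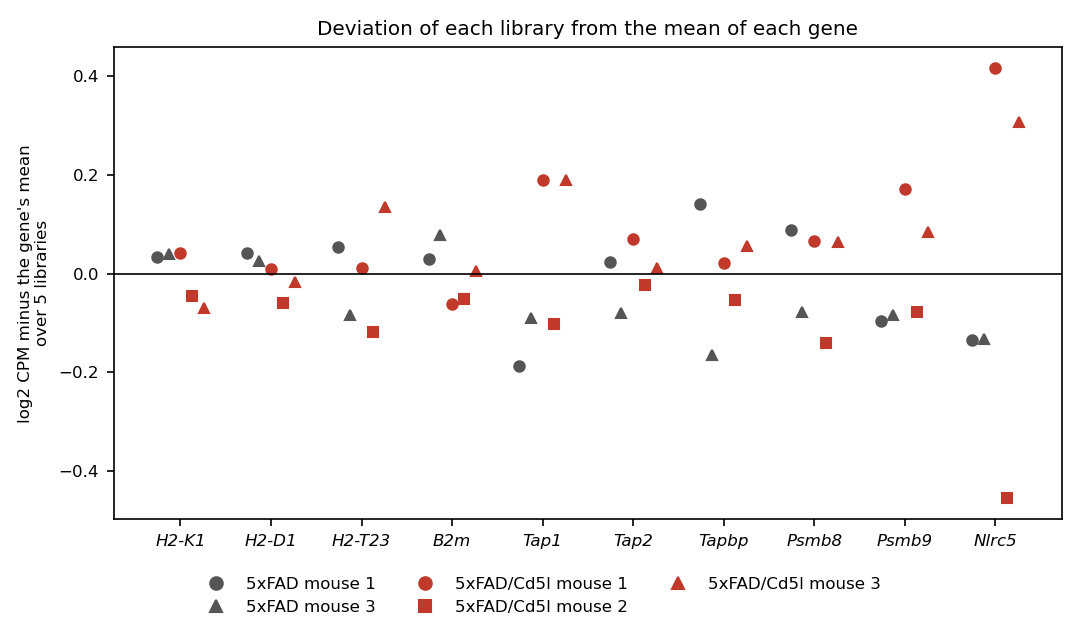
Deviation of log2 CPM from the mean of each gene over the 5 libraries (vertical axis), for each class I presentation gene; each point is 1 mouse. The squares of Cd5l-transgenic mouse 2 lie below 0 for all 10 genes, and the largest deviations, 0.42 and -0.46, are those of Nlrc5. The share of all tested genes below 0 in that library was not counted.

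Levels of different genes were compared as TMM-scaled CPM per kb of the gene length in the deposited table, as mean ± SD over all 5 libraries. B2m was highest at 3319 ± 135 CPM per kb, 4.74 times the level of H2-D1 (701 ± 19.2), which in turn was 1.58 times that of H2-K1 (443 ± 16.1). H2-T23 (116 ± 8.27) and Tapbp (113 ± 8.96) followed, with ranges that overlapped each other. Tap2 (34.2 ± 1.31) and Psmb8 (33.8 ± 2.37) also overlapped, and Tap1 was below both at 20.2 ± 2.52 CPM per kb. Psmb9 (12.7 ± 1.09) and Nlrc5 (9.90 ± 2.44) were lowest and overlapped. On this scale the per-kb level of Tap2 was 1.69 times that of Tap1, although the products pair one to one, and that of Psmb8 was 2.67 times that of Psmb9. These ratios depend on the deposited lengths, which were 3781 bases for Tap2 and 5476 bases for Tap1 and were not checked against transcripts. Before division by length, Tap2 had means of 126.7 and 130.9 CPM in 5xFAD and Cd5l-transgenic mice, and Tap1 had 100.1 and 118 CPM. Of the 10 genes only H2-K1 and H2-D1 overlapped no other gene in the table; Tapbp shared 3422 bases with Zbtb22 on the same strand (793 to 897 counts per library).

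Ratios within a library do not depend on scaling between libraries, and 5 were compared with exact two-sided permutation tests over mice, which for 2 against 3 mice cannot go below p = 0.2. The ratio of Psmb9 to its constitutive counterpart Psmb6, per kb, was 0.253 and 0.320 in 5xFAD mice 1 and 3 and 0.370, 0.322 and 0.332 in Cd5l-transgenic mice 1, 2 and 3. All Cd5l-transgenic mice were above both 5xFAD mice, with a mean difference of 0.26 on the log2 scale (exact p = 0.2, the smallest possible). Without 5xFAD mouse 1, which had the most Psmb6 (87.4 CPM, others 69.5 to 75.6 CPM), the difference was 0.091. The ratio of Psmb8 to Psmb5 was 1.28 and 1.13 against 1.32, 1.03 and 1.39, with overlapping groups (exact p = 1.0). Psmb10, which encodes the inducible beta2i subunit, stood at 2.02 and 2.03 times Psmb7 in 5xFAD and at 2.27, 2.00 and 2.17 times with the transgene (exact p = 0.6). H2-K1 to H2-D1 was the steadiest ratio in the 5 mice, 0.627 and 0.638 against 0.646, 0.637 and 0.609 (exact p = 1.0). H2-K1 and H2-D1 together stood at 0.347 and 0.333 times B2m in 5xFAD and at 0.365, 0.344 and 0.335 times with the transgene (exact p = 0.8). None of the 5 ratios could pass a threshold of 0.05 at this number of mice, before or after adjustment.

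**Figure D4:**
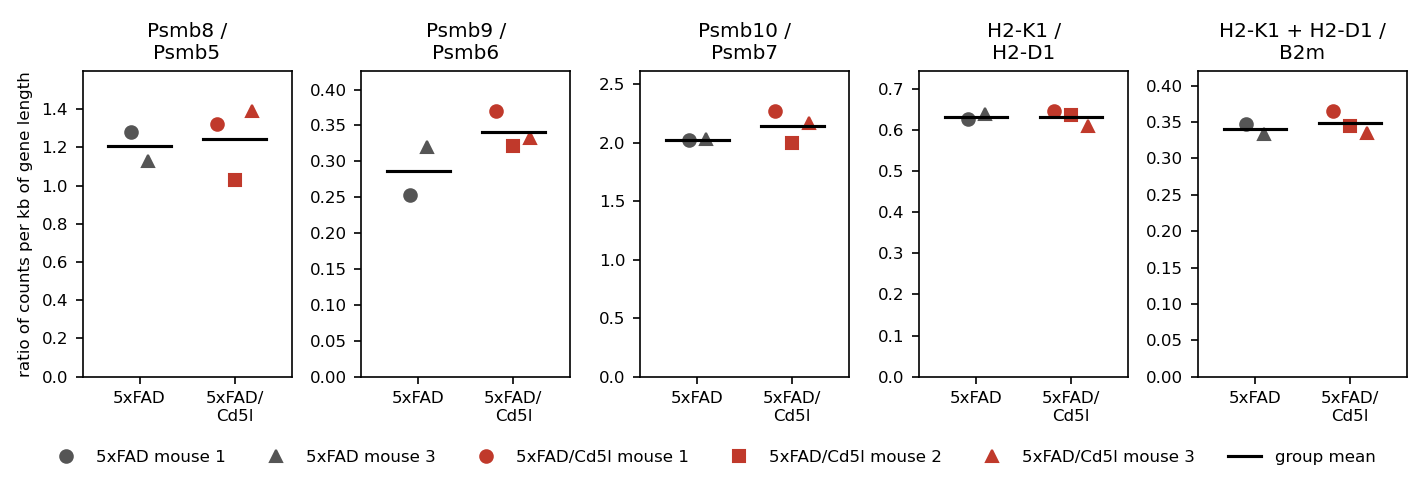
Within-library ratios of counts per kb of gene length (linear axes from 0) for 5 pairs, by genotype; each point is 1 mouse and the line the group mean. The groups are apart only for Psmb9 to Psmb6, where the nearest mice have 0.320 and 0.322.

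Other genes of the pathway were read from lists of symbols. In none of the lists did edgeR, DESeq2 or limma-voom call a gene at an adjusted p under 0.05. Of 17 other class I and class I-like chains 14 were tested, 9 above and 5 below 0, with a median of 0.059, and 1 had an unadjusted p under 0.05. That was Fcgrt, the class I-like receptor that recycles IgG, at 69.4 and 69.8 CPM in the 5xFAD mice against 83.8, 89.7 and 77.3 CPM in the Cd5l-transgenic mice (log2 fold change 0.26, edgeR adjusted p = 0.995). Hfe, the class I-like iron regulator, had 0.11, and H2-T24 had 0.14. H2-Q4, named after its values were seen, had 148.7 and 177.4 against 166.1, 146.7 and 166.2 CPM. H2-T3 had 0 counts in every library. The 12 peptide trimming and loading partners had a median of -0.0060 (5 above 0), with the glucosyltransferase Uggt1 at 0.13, the oligopeptidase Thop1 at -0.40 (-0.18 without Cd5l-transgenic mouse 2 and -0.77 without Cd5l-transgenic mouse 3) and the translocon gene Sec61a1 at 0.052 (0.0090 without 5xFAD mouse 3 and 0.095 without 5xFAD mouse 1).

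The 4 other inducible proteasome genes all lay above 0, with a median of 0.068, among them the proteasome activator Psme2 at 0.17, Psmb10 at 0.083 and the assembly factor Pomp at 0.052. Of the 15 constitutive proteasome genes 6 lay above 0, with a median of -0.0070. Psmb6 was at -0.12, Psma3 at -0.10, Psma7 at 0.072, Psmb5 at -0.044 and Psmb7 at -0.00090 (0.018 with DESeq2 size factors). The 9 class II genes, whose products present extracellular peptides or act in their loading, had a median of -0.046 (4 above 0). Among them H2-DMb2 was at 0.20, H2-Ob at -0.046 and the invariant chain Cd74 at -0.18. Without Cd5l-transgenic mouse 2 the class II median was 0.145, with 8 of 9 above 0. In a list of counterreceptors and related inhibitory receptors, not all of them established class I receptors, 7 of 8 genes were tested (median 0.12). Klrd1, a partner of receptors for Qa-1, stood at 0.949 and 1.30 CPM in the 5xFAD mice against 1.62, 1.41 and 1.85 CPM in the Cd5l-transgenic mice. The inhibitory receptor genes Pirb and Lilrb4a were at 0.14 and -0.28, the latter with 354.7 CPM in 5xFAD mouse 1 and 182.8 to 267.8 CPM in the other 4 mice.

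Among 24 genes of class I transcription and interferon signalling 14 lay above 0, with a median of 0.010 and 1 at an unadjusted p under 0.05. Without Cd5l-transgenic mouse 2, 21 of the 24 lay above 0, with a median of 0.074. Stat2, a transducer of type I interferon signals, stood at 101.1 and 108.1 CPM in the 5xFAD mice against 131.5, 114.1 and 131.2 CPM in the Cd5l-transgenic mice (log2 fold change 0.26, edgeR unadjusted p = 0.0307, adjusted p = 0.995). Ciita, the class II counterpart of Nlrc5, had 4.81 and 7.45 against 15.6, 4.61 and 14.6 CPM (log2 fold change 0.91, 95% interval -0.52 to 2.34). Irf1, an interferon-induced activator of class I genes that was named after its values were seen, had 147.8 and 115.3 against 153.5, 84.4 and 178.9 CPM (log2 fold change 0.080). Nlrc5, Ciita and Irf1 each had their lowest value in Cd5l-transgenic mouse 2 and their highest values in Cd5l-transgenic mice 1 and 3. With 5xFAD mouse 3 and Cd5l-transgenic mouse 2 left out together, edgeR called Ciita (log2 fold change 1.65, adjusted p = 0.0330), where the lone 5xFAD mouse is assumed to vary like the Cd5l-transgenic mice.

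Of 25 interferon-stimulated genes 23 lay above 0, with a median of 0.26, and 11 had no overlap in the higher direction, a share of the list that stands beside 7.2% of all tested genes. At an unadjusted p under 0.05 there were 6 of them in edgeR, 9 in DESeq2 and 6 in limma-voom, where all tested genes had shares of 2.63%, 4.06% and 3.12%. The guanylate-binding protein gene Gbp4 had 8.34 and 11.7 CPM in the 5xFAD mice against 24.1, 16.6 and 31.8 CPM in the Cd5l-transgenic mice (log2 fold change 1.26, edgeR unadjusted p = 0.00947, adjusted p = 0.995). Mx1, an antiviral GTPase, was at 0.25 and Ifitm3, an antiviral membrane protein gene, at 0.30. The endothelial, mural, monocyte and erythroid marker sums were also higher in the Cd5l-transgenic libraries, and their part in this list was not tested. Within that group the endothelial, mural and erythroid sums peaked in mouse 2 (1307, 380.6 and 20.8 CPM), and the monocyte sum in mouse 1 (42.2 CPM). Of the interferon-stimulated genes named here, Gbp4 (16.6 CPM) and Mx1 (37.3 CPM, others 37.4 and 38.8 CPM) were lowest of the group in mouse 2. Ifitm3 was highest there (78 CPM). Without Cd5l-transgenic mouse 2 the median of the interferon-stimulated genes was 0.21, with 23 of 25 above 0, and that of the 10 class I presentation genes 0.076, with 7 of 10 above 0.

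By the likeness rule, the genes outside all lists whose deviations over the 5 libraries came nearest to the median deviation of the 10 class I presentation genes were Rsf1, Ski, Pip4k2b, Gpx1 and Niban1. Their root mean square differences from it were 0.0092, 0.0108, 0.0113, 0.0137 and 0.0148 on the log2 scale. Of the 10180 genes compared, 566 (5.56%) were within 0.05 and 4133 (40.6%) within 0.1, while the median deviations themselves were below 0.1 in size.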

How the data were processed

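The authors deposited raw read counts per Ensembl gene, whole numbers with no normalisation, in 1 table with a column per library and the length of each gene in bases. Per the submitters' processing notes the genome was GRCm39 (mm39). The aligner, the counter, the annotation and the use of strand were not given in the sources used here. Columns were matched to libraries by name. That of Cd5l-transgenic mouse 3 writes the 2 letter pairs of the name in reverse, and no per-sample column was left unused. One count was worth 0.0287 to 0.0325 CPM and 3 counts 0.0862 to 0.0974 CPM, counting error only.

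Genes were filtered with filterByExpr, scaled by TMM (factors from 0.952 to 1.02) and compared between genotypes by the edgeR 4.0.16 quasi-likelihood test (robust, dispersion 0.26 as biological coefficient of variation) in R 4.3.3, with genotype as the sole term. Standard errors were derived from each F statistic, and 95% intervals used the total degrees of freedom. CPM use library sizes over the tested genes. Deviations of log2 CPM used a prior count of 2. Ratios were tested with scipy 1.17.1, and promoter windows aligned with Biopython 1.88. The 10 genes and the lists were chosen with earlier results of these data known. Named by rule were the 10 genes, up to 3 members of each list by smallest unadjusted p, Psmb5, Psmb6, Psmb7, Psmb10, Cd5l and the 5 most alike genes with at least 5 CPM in no list. One gene that the rule names is not reported here. Irf1 and H2-Q4 were added after their values were seen, and the promoter motifs after reading the promoters. Alternatives were other scalings, DESeq2 1.42.0, limma-voom (limma 3.58.1), other filters, a replicate block, and leaving out each library. DESeq2 adjusted over the 14631 genes it did not set aside.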

Additional observations from a re-analysis of the deposited data

How the results depend on the processing

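Under all 14 alternatives 0 of the 10 class I presentation genes were called in either direction, and 6 of them (H2-K1, H2-D1, B2m, Tap1, Psmb9 and Nlrc5) kept their sign, with a lowest adjusted p of 0.228. Over all genes edgeR called 0 higher and 0 lower, DESeq2 called 9 higher and 2 lower, and leaving out single libraries gave 0 higher and 0 to 10 lower, the 10 without 5xFAD mouse 1. With 5xFAD mouse 3 and Cd5l-transgenic mouse 2 left out together, an alternative chosen after seeing the data, 13 were higher and 28 lower. The median of the 10 genes ran from -0.050 (without 5xFAD mouse 3) to 0.10 (without 5xFAD mouse 1) when single libraries were left out and from 0.0050 to 0.064 otherwise. The mouse numbers mark no shared animal, and number 2 occurs only in the Cd5l-transgenic group. A fit with the number as a block thus takes no genotype difference from that mouse. With the number as a replicate block that median was 0.064, and Psmb8 was at 0.060, Cd74 at 0.014 and H2-Q4 at 0.033. Same-numbered mice had correlations of their deviations of 0.129 and -0.24.

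Signs of small differences changed elsewhere. With DESeq2 size factors, upper-quartile factors, DESeq2, limma-voom and the 5 CPM filter, Psmb8 was at 0.011, 0.012, 0.011, 0.029 and 0.025. Psmb7 was at 0.018, 0.017 and 0.018 in the first 3 of these, 0.0010 with no filter and 0.031 with the 5 CPM filter. In limma-voom Cd74 was at 0.086 and H2-Q4 at 0.0080. With the 2 libraries left out together Tapbp was at -0.095, Pomp at -0.066, Psma3 at 0.058, Cd74 at 0.23 and H2-Q4 at 0.17, and Gbp4 (1.75, adjusted p = 0.0275) and Cd5l (7.14) passed in edgeR. Leaving out single libraries gave ranges of -0.041 to 0.10 for H2-T23, -0.0050 to 0.10 for Tap2, -0.14 to 0.18 for Tapbp, -0.091 to 0.080 for Psmb8, -0.081 to 0.20 for Pomp, -0.27 to 0.054 for Psmb6, -0.21 to 0.016 for Psma3, -0.096 to 0.026 for Psmb5, -0.015 to 0.034 for Psmb7, -0.12 to 0.027 for H2-Ob, -0.53 to 0.057 for Cd74, -0.64 to 0.20 for Lilrb4a, -0.15 to 0.10 for H2-Q4 and -0.13 to 0.35 for Irf1. Without a change of sign they were -0.77 to -0.18 for Thop1, 0.0040 to 0.14 for Psma7, 0.048 to 0.23 for Pirb, 0.066 to 0.15 for Hfe, 0.072 to 0.19 for Uggt1, 0.082 to 0.22 for H2-T24, 0.10 to 0.29 for H2-DMb2 and 0.33 to 0.77 for Klrd1. They were -0.012 to 0.084 for Rsf1, -0.024 to 0.099 for Ski, -0.032 to 0.10 for Pip4k2b, -0.0010 to 0.13 for Gpx1 and -0.012 to 0.10 for Niban1. For the log2 ratios they were -0.054 to 0.17 for Psmb8 to Psmb5, -0.021 to 0.020 for H2-K1 to H2-D1 and -0.0030 to 0.060 for the classical chains to B2m. The cause of these changes was not tested.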
